A study of Mus musculus with 48 samples.

Results

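The comparison asks whether lung fibroblasts of the Ga13 mouse line answer a thrombin receptor agonist differently once their biosensor is switched on. For every gene, the change after the agonist in cells given empty virus was subtracted from the change in cells given Cre virus. A positive difference of responses thus means that the gene ended relatively higher after the agonist when Cre was present. Raw counts of 12 of the 48 samples of the series entered it, as 4 groups of 3 libraries, and 15835 genes had enough counts to be tested.

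The cells of all 4 groups were primary lung fibroblasts from mice heterozygous for the allele named Ga13*-BERKY3, and the age of the mice is not given in the sources used here. About 18 h after 160000 cells had been seeded per well, each culture received an adeno-associated virus at a 1000-fold dilution, together with polybrene. The virus was AAV2/1-CMV-Cre, in which the CMV promoter drives Cre recombinase, or AAV2/1-CMV-empty. Medium was exchanged 90 min before RNA isolation for fresh medium with 100 µM TRAP-6 (stimulated) or without it (unstimulated). Every group therefore carried the allele and a virus, and what Cre does by itself cannot be told apart from what the biosensor does. The labels number the replicates but do not say whether they came from separate mice or cultures, so p-values measure the spread between these samples, which may be technical.

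Ga13 is the alpha subunit of a heterotrimeric G protein. In its GTP-bound form it binds guanine nucleotide exchange factors of RhoA and so activates RhoA, ROCK kinases and actin assembly, which release the transcription factor MRTF to act with SRF and favour the nuclear form of YAP and TAZ. TRAP-6 is a peptide that mimics the tethered ligand of the thrombin receptor PAR1, encoded by F2r, and PAR1 couples to several classes of G protein in fibroblasts. BERKY biosensors are luminescent proteins that bind the GTP-bound alpha subunit and report it by light.

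A level is given in CPM, the count scaled to a library of 1000000, and differences are log2 fold changes ± the fitted standard error (SE). The biosensor transcript was measured at 0.761, 0.653 and 0.515 CPM in the unstimulated and 0.0521, 0.919 and 0.829 CPM in the stimulated libraries with empty virus. With Cre it stood at 122, 125 and 107 CPM unstimulated and 134, 128 and 136 CPM stimulated, so the viral labels and the transcript went together in all 12 libraries. Gna13 itself lay between 91.7 and 108 CPM in all 12 libraries, and its difference of responses was -0.00 ± 0.06 (edgeR adjusted p = 1.00). Exons of Gna13 overlap Gm11696 on the opposite strand. F2r, the receptor gene, lay between 438 and 497 CPM, with a difference of responses of 0.14 ± 0.05 that did not pass (edgeR adjusted p = 0.427).

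Total counts ran from 21.0 to 29.1 M (units of 1000000 counts) in unstimulated cells with empty virus and from 21.7 to 42.6 M with Cre. They ran from 17.4 to 20.5 M in stimulated cells with empty virus and from 26.8 to 39.1 M with Cre, so each stimulated Cre library was deeper than each stimulated empty virus library. The summed level of 13 fibroblast markers was 49245 to 51977 CPM in all 12 libraries. Macrophage markers summed to 232 to 321 CPM, with overlap of all 4 groups, and lymphocyte markers to under 1 CPM in each library. Some groups separated in other lists. The 10 smooth muscle and pericyte markers, Acta2 foremost among them, summed to 2868 to 3158 CPM unstimulated and 3235 to 3474 CPM stimulated with empty virus, and to 2776 to 2930.1 and 3097 to 3227 CPM with Cre, so stimulated Cre libraries lay below stimulated empty virus libraries. Mesothelial markers summed to 793 to 874 and 823 to 938 CPM with empty virus and to 846 to 976 and 896 to 1027 CPM with Cre, so stimulated Cre libraries lay above unstimulated empty virus libraries. No smooth muscle, pericyte or mesothelial marker was called in the difference of responses by edgeR, DESeq2 or limma-voom. In edgeR 0 of 10 and 2 of 9 had an unadjusted p under 0.05, against 7.67% of all genes. Of the 13 fibroblast markers, 1 was called by DESeq2 (60 of 29494 genes in that fit) and 0 by edgeR or limma-voom. An unadjusted p under 0.05 was found for 3 of these 13 in each tool, again beside 7.67% of all genes in edgeR. The part of these cell types in the results was not tested.

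In edgeR's quasi-likelihood F test, 13 genes (0.0821% of those tested) passed in the difference of responses. A gene is said to pass, or to be called, where its p after Benjamini-Hochberg adjustment lies under 0.05. The difference was positive for 12 of them (0.0758% of all genes) and negative for Ppp1r15a alone (0.00632%). The 12 encode secreted or surface proteins (Inhba, Cxcl12, Nrp1, Thbd and Fzd1), the kinase Lrrk2, the zinc transporter Slc30a1, the cytokine signalling inhibitor Socs3, the nuclear proteins Sox9, Hivep2 and Lmcd1, and Gfod1. Sizes were modest, from 0.22 (Cxcl12) to 0.53 (Slc30a1) among the positive ones and -0.48 for Ppp1r15a. At an unadjusted p under 0.05, 657 genes (4.15%) were positive and 557 (3.52%) negative, together 7.67% of those tested.

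Most of the 13 were higher after TRAP-6, and by more with Cre than with empty virus. The response pointed up under both viruses for 9 genes and down under both for Slc30a1 and Fzd1, while Sox9 and Cxcl12 pointed down with empty virus and up with Cre. The response itself was called for 8 of the 13 with empty virus, against 3.88% of all genes, and for 11 with Cre, against 5.37%. These responses share their libraries with the difference that chose the genes, so they describe the pattern and carry no support of their own. Nrp1, Sox9, Gfod1, Socs3 and Cxcl12 had a called response with Cre and none with empty virus, and Ppp1r15a and Slc30a1 the reverse.

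**Figure D1:**
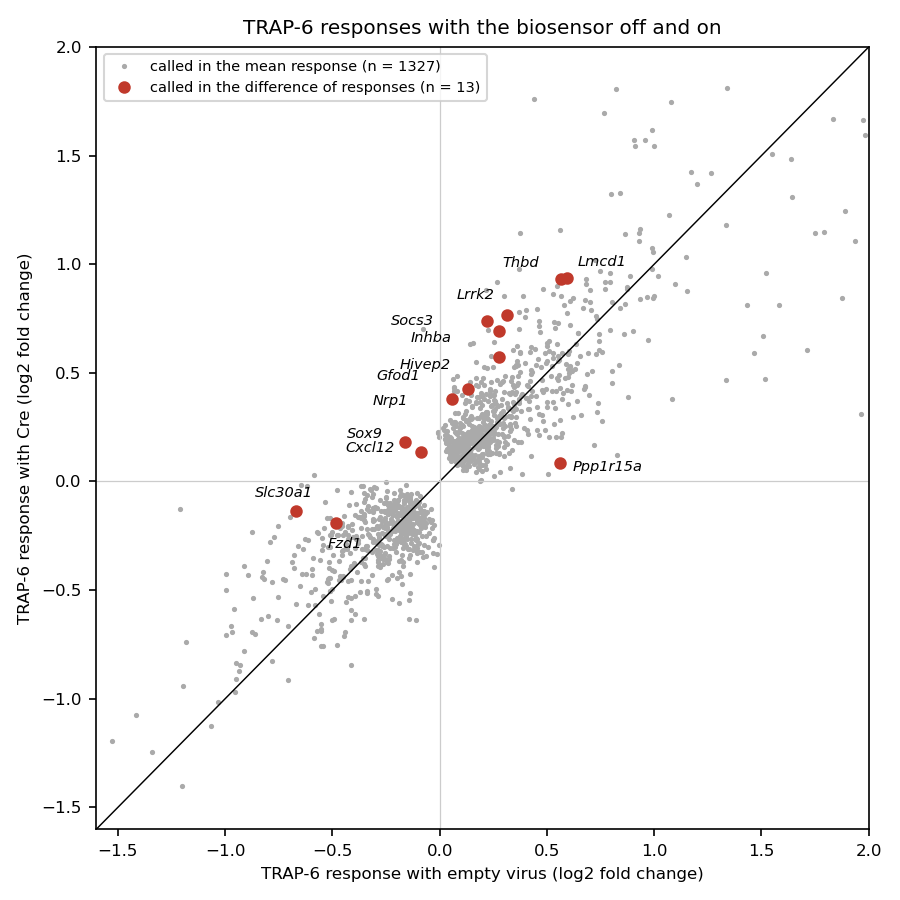
TRAP-6 response with empty virus (x axis) against the response with Cre (y axis), both as log2 fold changes, for the 1327 genes called in the mean of both responses (grey) and the 13 genes called in the difference of responses (red). The diagonal marks equal responses; 12 red points lie above it and Ppp1r15a lies below it, and 23 of the 1327 grey points fall outside the axes.

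Secreted factors and the receptors and cofactors of the cell surface made up 5 of the 13. Inhba encodes the beta A subunit of activin A, a ligand of the TGF-beta family that fibroblasts secrete. Its level was 1412, 1394 and 1466 CPM in the unstimulated and 1602, 1739.8 and 1706 CPM in the stimulated libraries with empty virus. With Cre it was 1222, 1324 and 1249 CPM unstimulated and 1918, 2172 and 1856 CPM stimulated. None of the 4 groups overlapped: Cre cells lay lowest at rest and highest after TRAP-6. Inhba rose by 0.27 ± 0.05 with empty virus and by 0.69 ± 0.05 with Cre, a difference of 0.42 ± 0.07 (edgeR adjusted p = 0.03).

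Thbd, thrombomodulin, binds thrombin at the cell surface and turns it toward the activation of protein C. Thbd stood at 756, 742 and 862 CPM unstimulated and 1096, 1143 and 1169.8 CPM stimulated with empty virus, and at 666, 723 and 743 and 1310.0, 1329.9 and 1299.6 CPM with Cre. The stimulated Cre libraries lay above the stimulated empty virus libraries, while the unstimulated groups touched at 742 and 743 CPM. The response of Thbd grew from 0.56 ± 0.05 to 0.93 ± 0.05 (difference 0.37 ± 0.07, edgeR adjusted p = 0.03).

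Nrp1 encodes neuropilin, a co-receptor for VEGF and for secreted semaphorins. With empty virus its unstimulated libraries (137, 144 and 146 CPM) and stimulated libraries (142, 148 and 144 CPM) overlapped. With Cre the level went from 135, 133 and 139.7 CPM to 168, 174 and 172 CPM, and the stimulated Cre libraries lay above all other libraries. Its response was 0.06 ± 0.04 with empty virus, which did not pass, and 0.38 ± 0.04 with Cre (difference 0.32 ± 0.06, edgeR adjusted p = 0.0179). An annotated microRNA, Mir1903, overlaps an exon of Nrp1, and whether counting used strand is not given in the sources used here.

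Cxcl12, a chemokine that stromal cells secrete, moved little and in opposite directions. With empty virus it stood at 994, 1002 and 1022 CPM unstimulated and 897, 933 and 943 CPM stimulated, a change of -0.09 ± 0.03 that did not pass (edgeR adjusted p = 0.166). With Cre it rose by 0.14 ± 0.03, from 916, 897 and 927 to 946, 969 and 1005 CPM, and then overlapped the unstimulated empty virus libraries. The difference was 0.22 ± 0.05 (edgeR adjusted p = 0.0436), the smallest of the 13.

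Fzd1, a Frizzled receptor for Wnt ligands, fell under both viruses, and by less with Cre. Its level dropped from 276, 269.8 and 303 CPM to 187, 205 and 201 CPM with empty virus and from 242, 257 and 253 CPM to 207, 214 and 218 CPM with Cre. No group overlapped another, and both Cre groups lay between the empty virus groups. The responses were -0.48 ± 0.04 and -0.19 ± 0.04, a difference of 0.29 ± 0.06 (edgeR adjusted p = 0.0453).

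Among intracellular signalling proteins, Lrrk2 had the smallest p of all genes. It encodes a large protein with a kinase and a GTPase domain that is mutated in familial Parkinson's disease. Its level was 88.7, 98.2 and 105 CPM unstimulated and 114, 116 and 125 CPM stimulated with empty virus. With Cre it was 89.0, 90.3 and 95.3 CPM unstimulated and 144, 154 and 155 CPM stimulated. The unstimulated groups overlapped, and the stimulated Cre libraries lay above all others. The rise of 0.31 ± 0.05 with empty virus became 0.77 ± 0.05 with Cre, a difference of 0.45 ± 0.07 (edgeR adjusted p = 0.00694).

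Socs3, an inhibitor of JAK and STAT signalling that cytokines induce, had the second largest positive difference of the 13. Its unstimulated libraries overlapped at 38.5, 33.8 and 42.4 CPM with empty virus and 28.3, 34.5 and 34.7 CPM with Cre. After TRAP-6 it stood at 41.6, 44.3 and 44.4 CPM with empty virus, a change of 0.22 ± 0.08 that did not pass, and at 53.1, 51.0 and 54.4 CPM with Cre, a rise of 0.74 ± 0.07. The stimulated Cre libraries again lay above all others (difference 0.52 ± 0.11, edgeR adjusted p = 0.0436).

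Slc30a1, which exports zinc across the plasma membrane, fell with empty virus from 45.7, 43.5 and 49.0 CPM to 26.6, 27.3 and 30.9 CPM. With Cre it went from 41.9, 40.6 and 41.2 CPM to 40.2, 35.3 and 33.7 CPM. The 4 groups did not overlap, and both Cre groups lay between the empty virus groups, as for Fzd1. The fall of -0.67 ± 0.07 with empty virus compares with -0.14 ± 0.07 with Cre, which did not pass (difference 0.53 ± 0.10, edgeR adjusted p = 0.03). Slc30a1 shares exon sequence with 1700034H15Rik on the opposite strand, so its counts are uncertain.

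Ppp1r15a, also called Gadd34, directs protein phosphatase to the translation factor eIF2 alpha and so ends the translational block of the integrated stress response. It was the 1 called gene with a negative difference. With empty virus it rose from 54.9, 54.4 and 55.1 CPM to 79.0, 73.1 and 84.9 CPM, by 0.56 ± 0.06. With Cre it stood at 61.9, 64.8 and 65.2 CPM unstimulated and 65.3, 60.9 and 71.3 CPM stimulated, a change of 0.09 ± 0.06 that did not pass. The unstimulated Cre libraries all lay above the unstimulated empty virus libraries, and the stimulated empty virus libraries lay above all others. The difference was -0.48 ± 0.08 (edgeR adjusted p = 0.0103). Tulp2 overlaps an exon of Ppp1r15a on the opposite strand, which leaves its counts uncertain.

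The nuclear proteins among the 13 were Lmcd1, Hivep2 and Sox9. Lmcd1, a LIM domain protein that restrains GATA factors, was one of 31 SRF and MRTF target genes listed for this comparison. Its level rose from 132, 135 and 139.6 CPM to 191, 207 and 202 CPM with empty virus and from 106, 112 and 126 CPM to 210.1, 217 and 213 CPM with Cre. The groups did not overlap, although the stimulated groups came as close as 207 and 210.1 CPM. The responses were 0.59 ± 0.05 and 0.94 ± 0.05 (difference 0.34 ± 0.07, edgeR adjusted p = 0.03).

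Hivep2, a zinc finger transcription factor, rose from 138, 134 and 138 CPM to 167, 161 and 157 CPM with empty virus and from 129, 129.7 and 122 CPM to 187, 183 and 180.0 CPM with Cre. Cre cells were lowest at rest and highest after TRAP-6, with no overlap of groups. Its rise of 0.28 ± 0.04 became 0.57 ± 0.04 (difference 0.30 ± 0.06, edgeR adjusted p = 0.03). Gm26835 and Gm28289 overlap its exons on the opposite strand.

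Sox9, a transcription factor that drives cartilage and matrix genes, stood at 77.05, 80.1 and 85.4 CPM unstimulated and 72.6, 68.2 and 71.0 CPM stimulated with empty virus, a change of -0.16 ± 0.05 that did not pass. With Cre it rose by 0.18 ± 0.05, from 73.1, 74.7 and 76.2 CPM to 84.6, 81.3 and 80.7 CPM. The stimulated Cre libraries overlapped the unstimulated empty virus libraries and lay above those of the other groups (difference 0.34 ± 0.07, edgeR adjusted p = 0.0402). Gfod1, named for an oxidoreductase domain, had 117, 121 and 125 CPM unstimulated and 124, 132 and 133 CPM stimulated with empty virus, which overlapped. With Cre Gfod1 rose from 105, 113 and 109 CPM to 143, 143 and 141 CPM, above all other libraries (difference 0.29 ± 0.06, edgeR adjusted p = 0.0436).

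**Figure D2:**
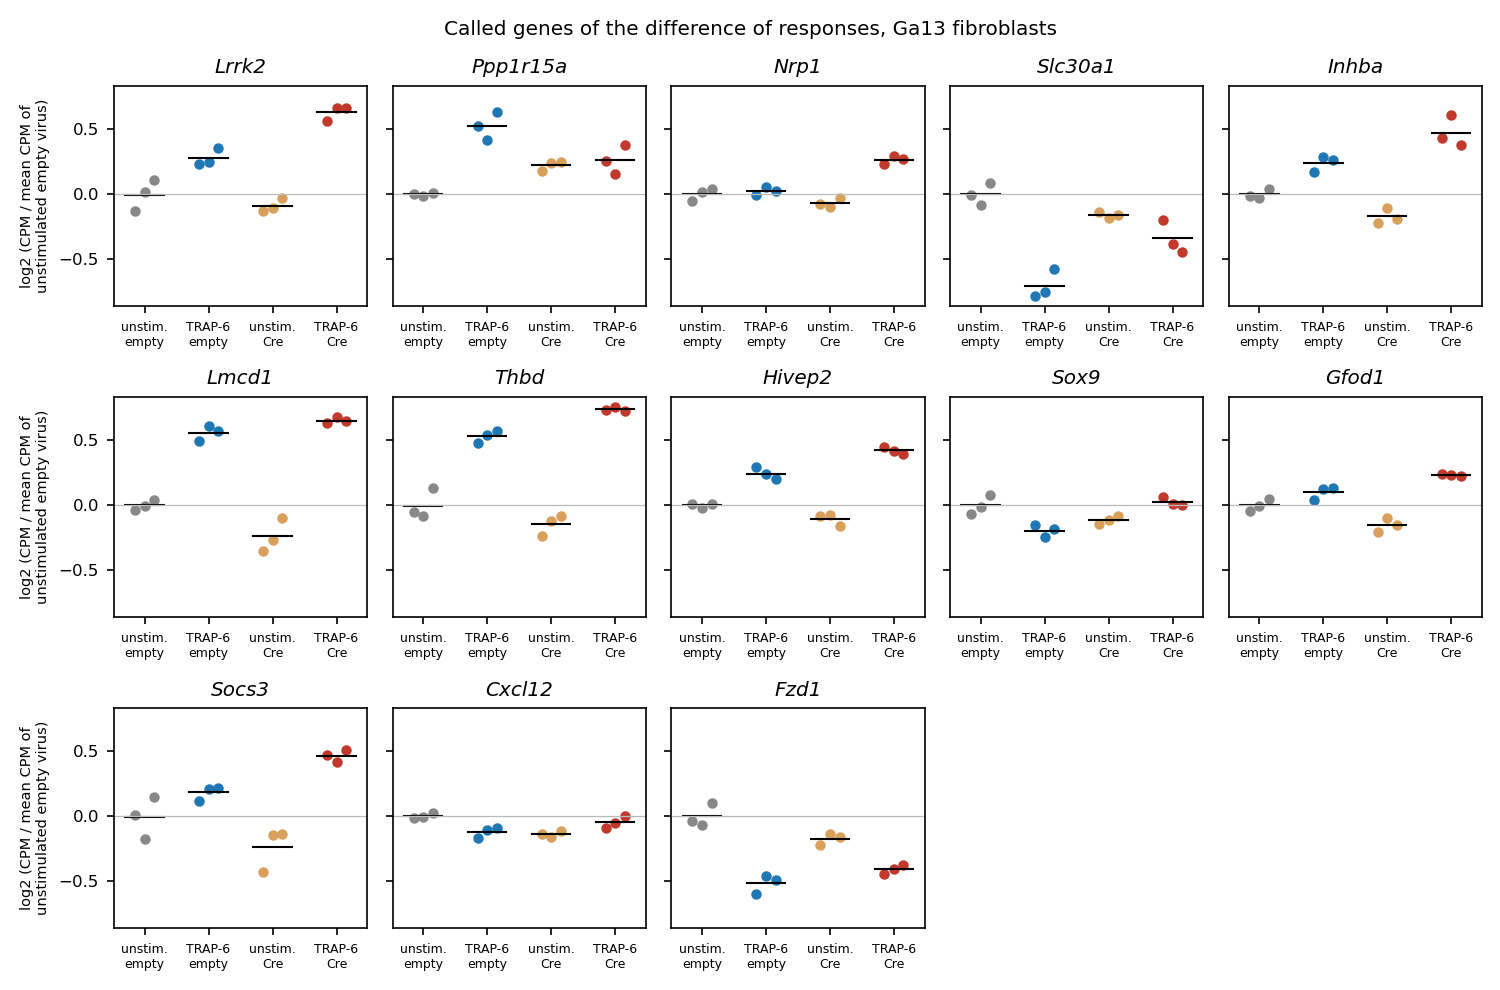
Level of each of the 13 called genes in all 12 libraries, as log2 of CPM over the mean CPM of the unstimulated empty virus group (y axis), by group (x axis). Points are libraries and black lines group means; for 12 genes the 3 stimulated Cre libraries lie above the 3 stimulated empty virus libraries, and for Ppp1r15a they lie below.

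Bases upstream of the transcription start were searched for the letters of 6 motifs on both strands. RefSeq sequences (build GRCm38.p6) were matched by symbol for 10 of the 13 genes and for 10888 tested genes, and the 250 bases before the start were read. The 3 called genes with any of these motifs are shown, 5′ to 3′ on the strand of the gene and ending at the base before the start, with the motifs in capitals. Lmcd1, on chromosome 6 (chr6:112273508-112273757, plus strand), holds a CArG box, the motif of SRF, 215 bases before the start and a CRE (TGACGTCA), the motif of CREB and ATF factors, 130 bases before it. Ppp1r15a, on chromosome 7 (chr7:45526269-45526518, minus strand), holds a CRE 12 bases before the start. Socs3, on chromosome 11 (chr11:117969367-117969616, minus strand), holds a STAT motif (TTCNNNGAA) 154 bases before it.
Lmcd1: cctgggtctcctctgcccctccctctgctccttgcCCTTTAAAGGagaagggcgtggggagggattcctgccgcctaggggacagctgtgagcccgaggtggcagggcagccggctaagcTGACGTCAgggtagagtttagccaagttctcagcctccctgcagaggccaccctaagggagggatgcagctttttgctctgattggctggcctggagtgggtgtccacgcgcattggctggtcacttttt
Ppp1r15a: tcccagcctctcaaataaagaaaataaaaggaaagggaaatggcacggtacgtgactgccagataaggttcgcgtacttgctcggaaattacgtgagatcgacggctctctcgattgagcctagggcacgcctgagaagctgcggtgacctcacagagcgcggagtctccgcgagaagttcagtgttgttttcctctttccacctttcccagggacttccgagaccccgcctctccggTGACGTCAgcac
Socs3: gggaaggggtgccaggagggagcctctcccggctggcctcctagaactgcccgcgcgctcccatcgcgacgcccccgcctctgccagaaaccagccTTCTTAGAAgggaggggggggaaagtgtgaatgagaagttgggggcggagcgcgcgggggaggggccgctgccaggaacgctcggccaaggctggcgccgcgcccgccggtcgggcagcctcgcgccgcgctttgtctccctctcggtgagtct

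A CRE was thus found for 2 of the 10 matched genes, against 2.93% of the 10888. The CArG box was found for 1 of 10 against 1.44%, and the STAT motif for 1 of 10 against 7.09%. None of the 10 held an AP-1 motif (TGANTCA, 5.91% of the 10888), a TEAD motif (GGAATG, 13.2%) or an E-box (CACGTG, 9.75%). No motif printed overlaps another. A match is a string of letters and was not shown here to be bound.

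The difference between viruses pointed one way at rest and the other way after TRAP-6 for each of the 13 genes. In unstimulated cells the log2 difference of Cre from empty virus was below 0 for 12 genes and above 0 for Ppp1r15a, with a median of -0.16. In stimulated cells it was above 0 for the same 12 and below 0 for Ppp1r15a, with a median of 0.21. All 3 Cre libraries lay below all 3 empty virus libraries at rest for 8 of the 12, a pattern that 4.18% of all genes showed. All 3 lay above after TRAP-6 for 12 of the 12, against 6.57% of all genes. For Ppp1r15a all 3 lay above at rest, as for 6.8% of all genes, and below after TRAP-6, as for 5.75%. The same libraries form the difference of responses, so these counts describe how the 13 genes arrived at it.

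Few of these levels passed a test of their own. None of the 13 was called between viruses at rest, where edgeR called 1 gene in all (0.00632%). An unadjusted p under 0.05 at rest was found for 11 of the 13 and for 783 of all 15835 genes. The resting libraries also form the difference that chose the 13. DESeq2, fitted as an alternative, called 7 genes at rest. After TRAP-6 edgeR called 6 genes (0.0379%), among them Lrrk2 with a difference of 0.35 ± 0.05 (adjusted p = 9.73e-04) and Nrp1 with 0.24 ± 0.04 (adjusted p = 0.00535). The other 4 were Gt(ROSA)26Sor, Tnfsf15, Ivl and Gm5276. Tnfsf15, a cytokine of the tumour necrosis factor family, had a difference of responses of 0.26 ± 0.08, and Ivl, which encodes involucrin, one of 0.30 ± 0.11; neither passed (edgeR adjusted p = 0.298 and 0.438). Gt(ROSA)26Sor, a transcript of the Rosa26 locus, was the 1 gene called at rest as well, higher with Cre in both states (1.04 ± 0.18 unstimulated and 1.25 ± 0.19 stimulated), with a difference of responses of 0.21 ± 0.26 that did not pass (edgeR adjusted p = 0.902).

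The part of each difference that came from the resting level varied between genes. It was computed as the size of the resting difference divided by that of the difference of responses. Resting levels made up 73.4% for Lmcd1, 67.5% for Cxcl12, 63.9% for Fzd1 and 55.3% for Gfod1, and less than 50% for the other 9. They made up 22.5% for Lrrk2 and 25.5% for Nrp1, the genes whose stimulated levels passed. The difference of responses is the stimulated minus the resting difference. A small resting share in genes with a large stimulated difference is therefore partly built in. Lmcd1 had the lowest resting level relative to empty virus (-0.25 ± 0.05, edgeR adjusted p = 0.0715) and one of the smallest stimulated differences (0.09 ± 0.05). Slc30a1 had the largest stimulated difference (0.36 ± 0.07, edgeR adjusted p = 0.0555), which did not pass.

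**Figure D3:**
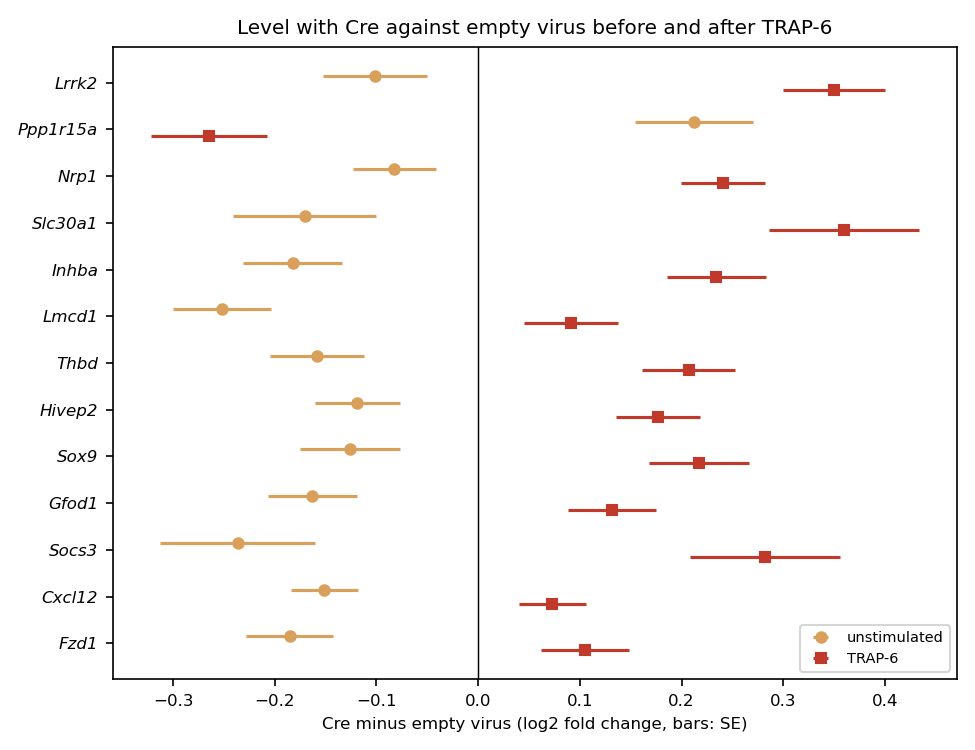
Log2 difference of Cre from empty virus (x axis) in unstimulated (circles) and stimulated (squares) cells for the 13 called genes; bars are the fitted SE. For 12 genes the circle lies left of 0 and the square right of it, from -0.25 (Lmcd1, unstimulated) to 0.36 (Slc30a1, stimulated), and Ppp1r15a shows the reverse.

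The next 12 genes by p, at a mean of at least 1 CPM, did not pass in edgeR and are given as values. DESeq2 and edgeR without a filter on low counts called all 12, and edgeR with the replicate number as a block 11 (all but Jun). Without its robust option edgeR called 2 (Serpinb2 and H1f2), and limma-voom called 1 (H1f2). Over all genes, DESeq2 called 60 and edgeR without a filter 86 of 29494. The block called 138, the fit without the robust option 8 and limma-voom 7 of 15835. For Serpinb2, an inhibitor of plasminogen activators, the response was 0.99 ± 0.09 with empty virus and 1.62 ± 0.09 with Cre, a difference of 0.63 ± 0.12 (edgeR adjusted p = 0.0523). Its resting libraries stood at 31.5, 32.0 and 35.9 CPM with empty virus and 20.1, 23.8 and 26.9 CPM with Cre, without overlap, and its stimulated libraries overlapped. Ereg, the EGF receptor ligand epiregulin, had a difference of 0.26 ± 0.06 (edgeR adjusted p = 0.0523), Rsbn1 one of 0.41 ± 0.09 and Il1r1, the interleukin-1 receptor, one of 0.38 ± 0.08. Jun, a subunit of AP-1, was the 1 gene of the 12 with a negative difference, -0.38 ± 0.08 (edgeR adjusted p = 0.0692). Jun had a response of 0.34 ± 0.06 with empty virus, from 132, 131 and 144 CPM to 178, 158 and 167 CPM, and of -0.04 ± 0.06 with Cre, from 135, 161 and 149 CPM to 142, 133 and 147 CPM. The other 7 (H3f3b, Spsb1, H1f2, Glrx, Tmtc3, Soat1 and Sh2d5) had positive differences, from 0.24 for Soat1 to 0.73 for Glrx.

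The linker histone H1f2 had 154, 142 and 179 CPM unstimulated and 90.4, 105 and 101 CPM stimulated with empty virus, and 112, 117 and 129 and 115, 113 and 115 CPM with Cre. Its fall with empty virus (-0.65 ± 0.08) compares with -0.02 ± 0.08 with Cre, where the groups overlapped. Spsb1, an adaptor of ubiquitin ligases, and Sh2d5, an SH2 domain adaptor, had responses of -0.33 ± 0.05 and -0.59 ± 0.11 with empty virus. With Cre their responses were -0.04 ± 0.05 and 0.03 ± 0.10. At rest Cre differed from empty virus by -0.42 ± 0.08 for H1f2, -0.12 ± 0.05 for Spsb1 and -0.13 ± 0.10 for Sh2d5. After TRAP-6 it differed by 0.21 ± 0.08, 0.17 ± 0.05 and 0.48 ± 0.10 for the same genes. Glrx, glutaredoxin, changed by -0.32 ± 0.12 with empty virus and by 0.41 ± 0.11 with Cre. Soat1, which esterifies cholesterol, and Tmtc3, a mannosyltransferase, had responses of -0.01 ± 0.04 and -0.09 ± 0.04 with empty virus and of 0.23 ± 0.04 and 0.18 ± 0.04 with Cre. Exons of Serpinb2, Rsbn1, Ereg, Spsb1, Jun and Sh2d5 overlap another annotated gene. H1f2 was not found under that symbol in the annotation searched, so its overlap could not be checked.

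Genes that answer TRAP-6 at all were taken from the mean of both responses, a contrast that does not use their difference. It called 742 genes up (4.69%) and 585 down (3.69%), together 8.38% of those tested. Of the 742, 464 (62.5%) had the larger rise with Cre, with a median difference of 0.04, while 51.9% of all tested genes had the larger change with Cre. Of the 585, 264 (45.1%) had the larger fall with Cre. An unadjusted p under 0.05 for the difference was found for 20.8% of the risers and 14.5% of the fallers, against 7.67% of all genes. Among the 186 genes that rose by at least 0.5, 98 (52.7%) rose more with Cre, and among the 83 that fell by at least 0.5, 25 (30.1%) fell more with Cre. The share of risers stayed between 57.3% and 67.9% in every alternative fit, and that of fallers ranged from 38.2% to 52.7%, on both sides of 50%.

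The strongest risers of the mean response described here were not among the 13. Their levels were low, with means over the 12 libraries from 1.07 CPM (Nap1l5) to 3.86 CPM (Frat2). With errors of 0.35 to 0.58, differences as small as those of the 13 (0.22 to 0.53) were not detectable for these genes. Nfatc2, a calcium-regulated transcription factor, rose by 2.16 ± 0.33 and 2.19 ± 0.31, with a difference of 0.03 ± 0.47. Kcnk10, a potassium channel, rose by 1.48 ± 0.25 and 2.35 ± 0.25 (difference 0.88 ± 0.36, edgeR adjusted p = 0.546). The cornified envelope gene Kprp (difference -0.16 ± 0.35) and Ncald, a calcium sensor (0.67 ± 0.37), did not pass either, nor did Lce1l (-1.25 ± 0.51), Nap1l5 (-0.04 ± 0.58) and Frat2 (-0.64 ± 0.35).

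Among the strongest fallers, Hes1, a Notch target and transcriptional repressor, fell from 21.5 ± 1.70 to 10.3 ± 0.796 CPM (SD, n = 3) with empty virus and from 21.6 ± 1.67 to 10.4 ± 0.273 CPM with Cre. Its responses, -1.03 ± 0.10 and -1.01 ± 0.10, differed by 0.02 ± 0.14. Prickle1, a planar polarity protein, fell by 1.06 and 1.12 on the log2 scale (difference -0.06 ± 0.19). Zfp763 (1.26 ± 0.56), Tmem255b (0.34 ± 0.59) and Pars2 (-0.01 ± 0.47) had differences with wide errors, and none passed. Exons of Ncald and Tmem255b overlap another gene.

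Genes of the pathway that Ga13 feeds had differences on both sides of 0. Of 33 genes of Ga12/13 and RhoA signalling, none was called in the difference of responses by edgeR, DESeq2 or limma-voom. The median of the 33 was -0.01, beside 0.00 over all genes. An unadjusted p under 0.05 was found for 1 of them, against 7.67% of all genes. That gene was Arhgef2, a RhoA exchange factor that microtubules hold inactive, with -0.15 ± 0.05 (edgeR adjusted p = 0.481). Rock1, a kinase that RhoA activates, had 0.12 ± 0.06. Of 31 SRF and MRTF targets, 20 rose with empty virus and 19 with Cre, and none fell under either. Of all genes, 2.27% rose with empty virus and 3.52% with Cre. This and the other gene lists were chosen with earlier results of these data known, so such counts describe the lists only. Lmcd1 was the 1 target called in the difference, and the median of the 31 was -0.01 (-0.03 without stimulated empty virus replicate 3 to 0.03 without unstimulated empty virus replicate 3). Vcl, which encodes vinculin and had the next smallest p among them, rose by 0.37 ± 0.03 and 0.45 ± 0.03 (difference 0.09 ± 0.05, edgeR adjusted p = 0.694). Exons of Arhgef2 and Vcl overlap another gene on the opposite strand.

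YAP and TAZ targets rose in 9 of 23 cases under each virus, against 2.27% and 3.52% of all genes. Their median difference was 0.03 (0.0026 without stimulated empty virus replicate 3 to 0.06 without stimulated empty virus replicate 2), with 3 positive and 2 negative members at an unadjusted p under 0.05 and none called by edgeR (1 by DESeq2). Frmd6 (0.18 ± 0.05) and F3, tissue factor (0.17 ± 0.05), had the smallest p. Thrombin and PAR receptors with RGS proteins numbered 21, with Thbd called, 4 positive and 0 negative at an unadjusted p under 0.05, and a median of 0.14 (0.08 without unstimulated Cre replicate 1 to 0.16 without unstimulated Cre replicate 3). Secreted growth factors numbered 29, of which 22 had a positive difference, against 50.3% of all genes. At an unadjusted p under 0.05, 9 were positive and 3 negative, against 4.15% and 3.52% of all genes. Inhba was called. Without the filter edgeR called 6 of the list, and DESeq2 called 2. Over all genes these fits called 86 and 60 of 29494. The median of the 29 was 0.14 (0.09 without stimulated Cre replicate 3 to 0.18 without stimulated empty virus replicate 3).

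**Figure D4:**
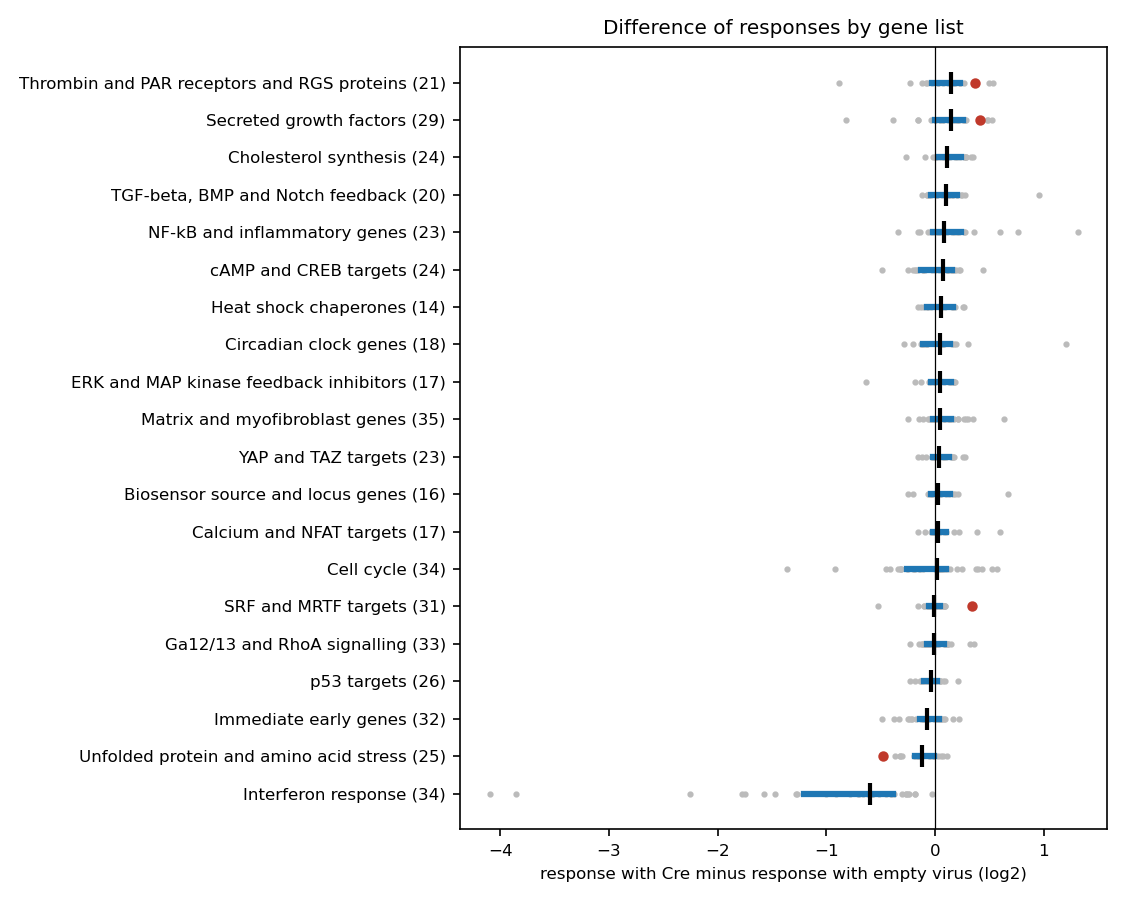
Difference of responses (x axis, log2) of the members of 20 gene lists, with the number of tested members in brackets. Grey points are genes, red points called genes, blue bars the middle 50% and black ticks the median, which lies within 0.15 of 0 for every list except the interferon response (-0.60).

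The immediate early genes and the unfolded protein response each had more negative than positive members. Of 32 immediate early genes, 23 rose and 4 fell with empty virus, and 21 rose and 3 fell with Cre. Of all genes, 2.27% rose with empty virus and 3.52% with Cre. The median responses of the 32 were 0.40 and 0.29. Their median difference was -0.07 (-0.11 without unstimulated Cre replicate 1 to -0.02 without unstimulated Cre replicate 2). A positive difference was found for 12 of 32, against 50.3% of all genes. At an unadjusted p under 0.05, 7 members were negative and 0 positive, against 3.52% and 4.15% of all genes. None was called by the main edgeR fit. Without the filter 4 were called and by DESeq2 3, all negative, beside 17 and 11 negative calls over all 29494 genes. With the replicate number as a block, 3 negative members and 1 positive member were called, beside 25 and 113 over all 15835 genes. Besides Jun the 7 negative members include the nuclear receptor Nr4a1 (difference -0.25 ± 0.06, edgeR adjusted p = 0.130). Nr4a1 rose from 769 ± 49.1 to 1037 ± 11.4 CPM (SD, n = 3) with empty virus and from 843 ± 48.8 to 949 ± 43.8 CPM with Cre. Of 25 genes of the unfolded protein and amino acid stress response, 10 were negative and 0 positive at an unadjusted p under 0.05, 4 of 25 had a positive difference, and Ppp1r15a was called (median -0.12). Atf4, the transcription factor at the centre of that response, rose with empty virus by 0.19 ± 0.04 and had a response of 0.00 ± 0.04 with Cre (difference -0.18 ± 0.06, edgeR adjusted p = 0.389).

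The interferon response list had the lowest median, -0.60 over 34 genes, with 0 positive members, against 50.3% of all genes. Yet none was called by edgeR, DESeq2 or limma-voom. Without the filter on low counts edgeR called 1, beside 86 of all 29494 genes. In the main fit 1 had an unadjusted p under 0.05, against 7.67% of all genes. That one was Ifi35, an interferon-induced protein, with 16.0, 16.2 and 16.7 CPM unstimulated and 17.7, 17.0 and 16.5 CPM stimulated with empty virus, and 20.2, 21.5 and 21.8 and 17.3, 17.1 and 15.7 CPM with Cre (difference -0.40 ± 0.12, edgeR adjusted p = 0.322). Gm11626 overlaps Ifi35 on the opposite strand. Single libraries stood apart in this list. Its mean log2 level relative to the mean of the 12 libraries was highest in unstimulated Cre replicate 3 (1.25) and lowest in unstimulated empty virus replicate 2 (-0.83). Its median was -0.34 without the former, -0.38 without the latter and -0.30 without stimulated empty virus replicate 1, and -0.83 without unstimulated Cre replicate 2.

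The other fibroblast lines, named Gai and Gaq for the subunits of their BERKY3 alleles, received the same viruses and TRAP-6 in 12 libraries each, none shared with Ga13. All 13 genes had the same sign of the difference of responses in Gaq as in Ga13, where 55.5% of 15337 genes tested in both lines did. Of 1189 genes with an unadjusted p under 0.05 in Ga13, 68.4% did. The median of the 13 was 0.34 in Ga13 and 0.22 in Gaq. In Gai 7 of the 13 had the same sign, with a median of 0.00, against 52.5% of 15491 genes. Of 1196 genes with such a p in Ga13, 54.7% had the same sign in Gai. Lmcd1 and Thbd were called in both Ga13 and Gaq, which is 15.4% of the 13 genes called in Ga13 and 8% of the 25 called in Gaq (0.161% of its genes). Of those 25, 24 had the same sign in Ga13.

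Lmcd1 had a difference of 0.73 ± 0.09 in Gaq (edgeR adjusted p = 7.41e-05) and of 0.00 ± 0.23 in Gai. Thbd had 0.40 ± 0.08 in Gaq (edgeR adjusted p = 0.0275). Ppp1r15a had -0.37 ± 0.19 in Gaq, Lrrk2 0.39 ± 0.11 and Inhba 0.36 ± 0.08, and these did not pass there (edgeR adjusted p = 0.759, 0.316 and 0.179). Serpinb2, Rsbn1 and H1f2, which did not pass in Ga13, were called in Gaq at 0.60 ± 0.10, 0.50 ± 0.10 and 0.42 ± 0.07 (edgeR adjusted p = 0.00468, 0.0275 and 0.00227).

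The test of whether the difference itself differed between lines called no gene. It called 0 of 16421 genes between Ga13 and Gaq and 0 of 16620 between Ga13 and Gai by edgeR, and 0 by DESeq2 and limma-voom, with 692 and 551 genes at an unadjusted p under 0.05 in edgeR. Among the 13 genes, 3 had an unadjusted p under 0.05 against Gaq, 2 of them with the larger difference in Ga13. These 2 were Slc30a1 (0.33 ± 0.15 relative to Gaq) and Hivep2 (0.22 ± 0.10). Against Gai 4 had such a p, all 4 with the larger difference in Ga13. Lmcd1 was -0.39 ± 0.12 in Ga13 relative to Gaq (edgeR adjusted p = 0.999), and Gfod1 was 0.35 ± 0.12 relative to Gai (edgeR adjusted p = 1.00). Errors in Gai reached 0.37 (Nrp1), more than the 0.32 measured for that gene in Ga13, so a difference of that size was not detectable there.

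The resting levels of the 12 genes with a positive difference were mostly lower with Cre in Gaq too. The log2 difference of Cre from empty virus at rest was below 0 for 11 of the 12 in Gaq, against 49.8% of all genes, with a median of -0.30. Gfod1, Inhba, Sox9, Lmcd1 and Thbd were called at rest in Gaq, where 411 genes were (2.65%). After TRAP-6, 8 of the 12 lay above 0 in Gaq (49.6% of all genes), with a median of 0.03. In Gai 3 of the 12 lay below 0 at rest (50.5% of all genes), with a median of 0.03.

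**Figure D5:**
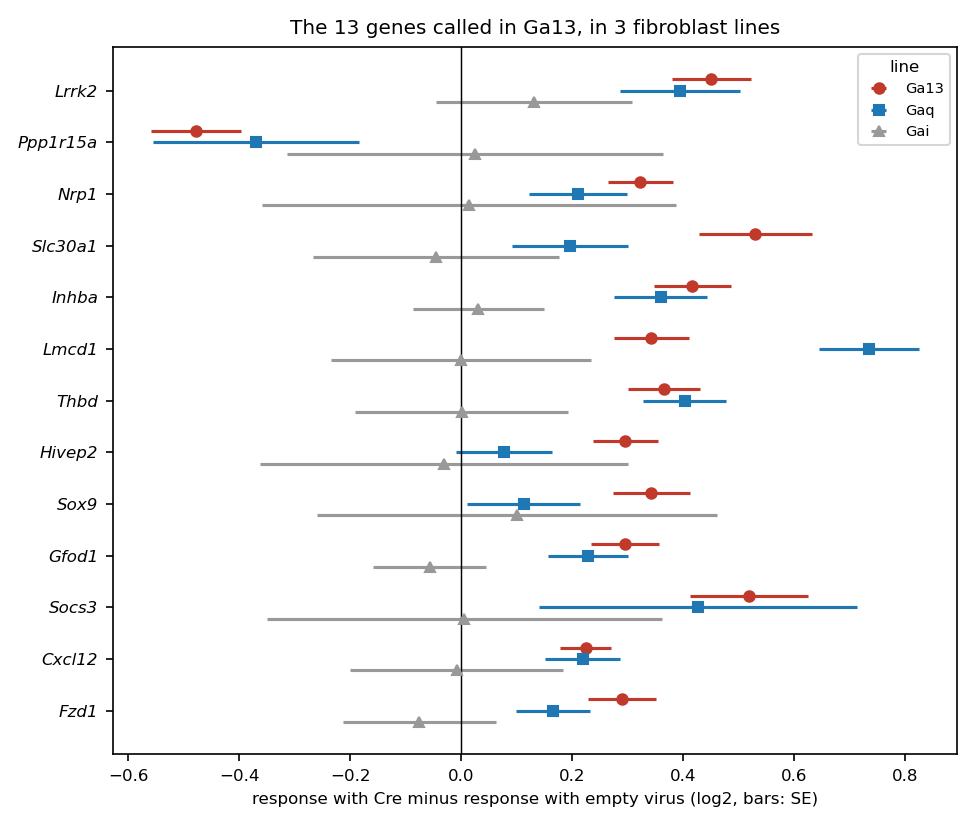
Response with Cre minus response with empty virus (x axis, log2) of the 13 genes called in Ga13, in the Ga13, Gaq and Gai lines; bars are the fitted SE. In Gaq all 13 points lie on the same side of 0 as in Ga13, from -0.37 (Ppp1r15a) to 0.73 (Lmcd1), while those of Gai lie between -0.08 and 0.13.

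The sizes of the 13 differences depended little on the fit and their calls depended on it. Leaving out each of the 12 libraries in turn gave 0.40 to 0.51 for Lrrk2 and -0.54 to -0.42 for Ppp1r15a. Lrrk2 stayed called in 12 of 12 such fits, Ppp1r15a in 11, Nrp1 and Inhba in 7, Slc30a1 and Thbd in 5, Lmcd1 in 3, Hivep2, Sox9 and Socs3 in 2, and Gfod1, Cxcl12 and Fzd1 in 1. Without stimulated empty virus replicate 3 the call of Ppp1r15a was lost (edgeR adjusted p = 0.0507). A fit of the 36 fibroblast libraries together called none of the 13 (Lrrk2, edgeR adjusted p = 0.777), with 975 genes at an unadjusted p under 0.05, and DESeq2 called 60 genes, all 13 among them. With all libraries thinned to the smallest total of 17.4 M, which removes the depth difference between the stimulated groups, 13 genes were called, 9 of them among the 13.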

How the data were processed

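Poly-A RNA of 12 Ga13 libraries was compared, with 12 Gaq and 12 Gai libraries for the comparison of lines; the Gas astrocytes were not used. The deposited values are raw read counts per gene. The submitters' processing notes name fastp, Subread, featureCounts and the build GRCm39; versions, annotation and strandedness are not given in the sources used here, so genes whose exons overlap in GENCODE M21 are marked as uncertain. The table held 50763 genes and the biosensor sequence, which was left out of all gene counts; the 13 mitochondrial genes had 0 counts in every library.

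From these counts, edgeR 4.0.16 under R 4.3.3 gave the tests (filterByExpr by group, TMM, robust quasi-likelihood F test, 1 mean per group, Benjamini-Hochberg over all tested genes, two-sided), with DESeq2 1.42.0 and limma 3.58.1 (voom) as alternatives. Other alternatives were RLE scaling, library totals alone, no filter, a filter of 1 CPM in 3 libraries, a fit without robust, the replicate number as a block, a fit of 36 libraries, each library left out, and, chosen after seeing the data, thinning to the smallest total. The common biological coefficient of variation was 0.0678. Replicates were not copies of each other: the chi-square of counts per degree of freedom was 2.73 to 8.46 within groups.

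The comparison, 20 gene lists and 9 marker lists were chosen with earlier results of these data known. Named were all called genes (Gm and Rik names only if 5 or fewer), the uncalled genes with the smallest p at a mean of at least 1 CPM up to 25 in all, the 8 highest and 6 lowest genes of the mean response, the 2 members of each list with the smallest p, and Gna13, F2r, Lmcd1, Lrrk2 and the biosensor. A few genes that this rule names are not reported here.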

Additional observations from a re-analysis of the deposited data

How the results depend on the processing

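The number of genes called in the difference of responses (13) was 13 with RLE scaling and after thinning, 10 with the stricter filter, 3 with library totals alone, 86 without a filter, 60 with DESeq2, 7 with limma-voom, 8 without the robust fit and 0 with all 36 fibroblast libraries. Without 1 library it was 3 to 22: 3 without unstimulated Cre replicate 1 or 2 or stimulated empty virus replicate 1 or 3, 4 without unstimulated empty virus replicate 1 or 3, 5 without stimulated Cre replicate 1 or 2 or stimulated empty virus replicate 2, 17 without unstimulated empty virus replicate 2 or unstimulated Cre replicate 3, and 22 without stimulated Cre replicate 3. All 13 genes kept their sign in every fit. RLE, no filter and DESeq2 kept all 13 calls, the stricter filter 10, limma-voom 6, the fit without robust 5 and library totals 3; the cause was not tested.

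The replicate number as a block gave 138 genes for the difference of responses (all 13 among them), 1357 for the response with Cre, 916 for that with empty virus, 1800 for the mean response, 32 for Cre at rest, 112 for Cre after TRAP-6 and 2 for each difference between lines. Deviations of same-numbered libraries correlated at 0.0013 to 0.336, above 0.1 in 12 of 18 pairs. With correlations averaged by replicate number, 11 of 12 libraries had the highest mean with their own number. This is a hint from the data and not from the design.

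The fit of 36 libraries called 366 genes for the response with empty virus, 534 for that with Cre and 1 for Cre after TRAP-6. Cre at rest (1 gene) gave 33 without a filter, 0 with the stricter filter (708 at an unadjusted p under 0.05), 7 with DESeq2 and 0 to 4 without 1 library. Cre after TRAP-6 (6) gave 62 without a filter, 30 with DESeq2, 10 after thinning and 2 to 13 without 1 library. The other counts without 1 library were 457 to 650 for the response with empty virus, 592 to 881 with Cre and 1051 to 1308 for their mean. The Ga13 and Gaq difference (0) gave 1 gene without a filter and 0 to 1 without 1 library.

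Signs changed only for uncalled genes near 0: Nfatc2 (-0.15) and Kprp (0.036) after thinning, Hes1 (-0.0045) with limma-voom, and Gna13 with RLE (0.0030), no filter (0.0031), the stricter filter (0.00058), DESeq2 (0.0024), 36 libraries (0.0018) and thinning (0.012). Without 1 library the values ran from -0.039 to 0.040 for Gna13, -0.043 to 0.088 for Hes1, -0.255 to 0.031 for Kprp, -1.05 to 0.327 for Nap1l5, -0.244 to 0.637 for Nfatc2, -0.196 to 0.139 for Pars2 and -0.188 to 0.038 for Prickle1. The smallest called difference was 0.22 (Cxcl12).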

Other observations

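The remaining gene lists held no gene called by edgeR in the difference of responses. Beside each median stand its lowest and highest value with 1 library left out. Of all genes, 4.15% were positive and 3.52% negative at an unadjusted p under 0.05. DESeq2 called 60 and edgeR without the filter 86 of 29494 genes. ERK and MAP kinase feedback inhibitors had 5 positive and 1 negative of 17 at an unadjusted p under 0.05 (median 0.05, 0.004 without stimulated Cre replicate 3 to 0.10 without stimulated empty virus replicate 2; 1 called by DESeq2). The smallest p belonged to Errfi1, an inhibitor of the EGF receptor, which rose by 0.28 ± 0.03 with empty virus and 0.45 ± 0.03 with Cre (difference 0.17 ± 0.04, edgeR adjusted p = 0.161), and to Dusp4, a MAP kinase phosphatase (0.15 ± 0.05). TGF-beta, BMP and Notch feedback genes had 5 positive and 0 negative of 20 (median 0.10, 0.02 without stimulated empty virus replicate 3 to 0.16 without stimulated empty virus replicate 2; 2 called by edgeR without the filter). Among them the Notch ligand Jag1 rose by 0.26 ± 0.05 with Cre and had a response of 0.02 ± 0.05 with empty virus, and the BMP antagonist Grem1 fell by 0.25 on the log2 scale with empty virus and had a response of -0.00 ± 0.05 with Cre. Matrix and myofibroblast genes had 6 positive and 3 negative of 35 (median 0.04, 0.03 without stimulated empty virus replicate 1 to 0.07 without unstimulated Cre replicate 3; 1 called by DESeq2 and 2 by edgeR without the filter), including the matrix protein tenascin, Tnc (0.16 ± 0.05).

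Cholesterol synthesis genes had a positive difference in 20 of 24, against 50.3% of all genes. At an unadjusted p under 0.05, 4 were positive and 0 negative (median 0.11, 0.04 without unstimulated empty virus replicate 3 to 0.18 without unstimulated Cre replicate 3). The smallest p belonged to Hsd17b7, a reductase of the pathway (0.33 ± 0.10). Heat shock chaperones had 3 positive and 1 negative of 14 (median 0.05, -0.01 without stimulated Cre replicate 2 to 0.07 without stimulated empty virus replicate 2), with Hsph1 at 0.18 ± 0.06 and Hspa1b at 0.26 ± 0.09. Targets of cAMP and CREB had 0 positive and 3 negative of 24 (median 0.08, -0.04 without unstimulated empty virus replicate 3 to 0.09 without unstimulated Cre replicate 3; 1 called by DESeq2 and 2 by edgeR without the filter), among them Dusp1, a MAP kinase phosphatase that rose by 0.86 ± 0.05 and 0.68 ± 0.05 (difference -0.18 ± 0.07). Targets of NF-kB had 1 positive (Ccl7, 0.36 ± 0.15) and 2 negative of 23 (median 0.09, 0.04 without unstimulated empty virus replicate 3 to 0.14 without unstimulated Cre replicate 3), among the latter Nfkbib (-0.34 ± 0.15).

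Targets of p53 had 1 positive (Pmaip1, 0.21 ± 0.09) and 0 negative of 26 (median -0.04, -0.08 without stimulated empty virus replicate 3 to -0.0021 without unstimulated empty virus replicate 3). The list of cell cycle genes had 0 positive and 1 negative of 34 (Ccne2, -1.36 ± 0.55; median 0.02, -0.20 without unstimulated empty virus replicate 3 to 0.12 without stimulated empty virus replicate 3). Its mean log2 level was highest in replicate 3 of the unstimulated (0.38) and stimulated (0.31) empty virus groups, against -0.14 to 0.07 in the other 10 libraries. Calcium and NFAT targets (17, median 0.03, -0.0023 without unstimulated empty virus replicate 3 to 0.06 without unstimulated Cre replicate 3) and circadian clock genes (18, median 0.05, -0.02 without stimulated Cre replicate 3 to 0.06 without unstimulated empty virus replicate 2) had 0 members at an unadjusted p under 0.05. The genes of the biosensor's source and locus had 1 positive of 16 (Gng12, 0.13 ± 0.05; median 0.03, 0.02 without unstimulated Cre replicate 3 to 0.05 without stimulated empty virus replicate 3). Exons of Dusp1, Nfkbib, Tnc, Ccne2 and Gng12 overlap another gene on the opposite strand.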
